A study of Mus musculus with 2 samples.

Results

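The genes described here encode the nuclear subunits of the mitochondrial respiratory chain and of the ATP synthase. They were taken by name from the array annotation: symbols that begin with Nduf and then a, b, c, s or v, the 4 Sdh genes, symbols that begin with Uqcr, Cyc1, Cycs, symbols of the Cox4 to Cox8 families and symbols that begin with Atp5. The rule found 94 of 37072 gene names, and 90 of them were measured, out of 20777 measured genes. Measured means that the scanner software flagged the brightest probe of the gene as well above background on each of the arrays. The 94 names include 76 standard subunits (cytochrome c counted with them), 7 Ndufaf genes for complex I assembly factors, 2 isoforms linked to low oxygen (Cox4i2 and Ndufa4l2), 6 tissue isoforms of complex IV and 3 other Atp5 names. All 76 standard subunits and all 7 Ndufaf genes that the rule found were measured. No gene found carried the name Cox5b, Ndufb1 or Ndufaf8, so the groups need not hold every gene of their kind.

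The study compared mouse cells given an agent labelled S180 with mouse cells given DMSO, a solvent that served as the control. It comprised 1 array of total RNA for each. The labels do not say which cells were used, at which dose or for how long, they do not explain the name S180, and they state no age, strain or genotype. Since each group has 1 sample, the differences could not be set against a spread between replicates, and no test was made.

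In the respiratory chain, complexes I and II pass electrons from NADH and succinate to ubiquinone, complex III passes them on to cytochrome c, and complex IV passes them to oxygen. The proton gradient that complexes I, III and IV build drives the ATP synthase, also called complex V. Most subunits are encoded in the nucleus and a small set in mitochondrial DNA, and a large group of assembly factors puts the complexes together without staying in them. Nuclear respiratory factor 1 (NRF1) and the ETS-family factor GABP are known regulators of many of these nuclear genes. At low oxygen the HIF factors are known to act on the chain through a handful of genes, among them Cox4i2, Ndufa4l2, Higd1a, Lonp1 and Mxi1.

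The differences on which the results turn were read by single probes of 60 bases. The probe for Cox4i1, the common form of complex IV subunit 4, is shown because it is set beside that of Cox4i2, and those for the assembly factors Ndufaf4 and Ndufaf6 are shown because these genes had the lowest values of the Ndufaf group. They lie at chr8:123197924-123197983, chr4:24830285-24830344 and chr4:10978306-10978365, as the array design places them on build mm9, and each has at least 1 reading frame with no stop codon.
Cox4i1: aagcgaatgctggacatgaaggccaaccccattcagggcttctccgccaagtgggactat
Ndufaf4: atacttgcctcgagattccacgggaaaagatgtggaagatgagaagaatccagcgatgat
Ndufaf6: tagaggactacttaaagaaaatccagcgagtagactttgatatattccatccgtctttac

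Promoters were taken from RefSeq on GRCm38.p6, as the 250 bases before the start of each gene. The NRF1 motif was searched as GCGCATGC, the ETS motif as CCGGAAG and the core of the hypoxia response element as ACGTG, on both strands, with overlapping matches counted. A promoter was listed for 76 of the 94 genes. The NRF1 letters were in 10 of these 76 promoters (13.2%), against 692 of 27025 promoters of all listed genes (2.56%). The ETS letters were in 13 (17.1%) against 2115 (7.83%), and the ACGTG core in 18 (23.7%) against 4998 (18.5%). A match is a description of the letters and not a bound site.

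The promoters of 4 genes are shown, for Cox6a1 (chr5:115348959-115349208, minus strand), Cycs (chr6:50566570-50566819, minus strand), Ndufaf4 (chr4:24897833-24898082, plus strand) and the low-oxygen regulator Higd1a, which is outside the set (chr9:121857797-121858046, minus strand). They were chosen, with their values known, as a subunit, the electron carrier, an assembly factor and a regulator that each hold NRF1 letters. Their log2 differences, S180 minus DMSO, were 0.12, 0.06, -0.39 and 0.86 in that order. Whether the motifs have a part in these values was not tested. Each promoter is printed 5′ to 3′ in the direction of the gene, with every match of the 3 motifs in capitals. Cox6a1 and Ndufaf4 have 2 overlapping NRF1 matches each, Cycs and Higd1a have 1 each, Cox6a1 and Higd1a have 1 ETS match each, and Cycs has 1 match to the ACGTG core.
Cox6a1: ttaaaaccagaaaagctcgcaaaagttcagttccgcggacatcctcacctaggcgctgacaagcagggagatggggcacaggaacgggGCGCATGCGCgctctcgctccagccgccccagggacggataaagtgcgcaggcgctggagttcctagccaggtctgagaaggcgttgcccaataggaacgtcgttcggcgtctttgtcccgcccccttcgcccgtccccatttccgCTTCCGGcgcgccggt
Cycs: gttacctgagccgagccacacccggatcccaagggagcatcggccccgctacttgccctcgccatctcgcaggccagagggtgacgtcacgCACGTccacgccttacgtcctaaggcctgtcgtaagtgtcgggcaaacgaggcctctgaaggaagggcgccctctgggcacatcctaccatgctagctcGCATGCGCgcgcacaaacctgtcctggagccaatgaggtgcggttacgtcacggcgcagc
Ndufaf4: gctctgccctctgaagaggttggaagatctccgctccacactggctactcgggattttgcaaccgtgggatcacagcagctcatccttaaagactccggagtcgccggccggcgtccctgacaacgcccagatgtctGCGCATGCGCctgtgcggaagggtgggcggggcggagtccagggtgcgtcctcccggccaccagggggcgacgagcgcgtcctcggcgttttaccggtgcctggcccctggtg
Higd1a: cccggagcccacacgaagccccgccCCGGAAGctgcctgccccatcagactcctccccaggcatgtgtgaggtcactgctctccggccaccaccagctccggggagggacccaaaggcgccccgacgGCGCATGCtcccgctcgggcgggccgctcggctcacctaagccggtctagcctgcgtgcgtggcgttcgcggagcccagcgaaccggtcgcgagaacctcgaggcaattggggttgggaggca

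Values are log2 processed signals minus the 75th percentile of their array, and differences are S180 minus DMSO. Each array held 62976 spots, of which 59305 were not controls. The number well above background was 36717 for S180 and 35921 for DMSO, and 0 spots were saturated. Over all measured genes the differences had a median of 0.00 and an SD of 0.29. The SD of a difference between single replicate spots was 0.067 over 279 probes, 0.042 among 262 bright probes and 0.266 among 11 dim ones. This SD leaves out the error of the culture and of the labelling. Melanocyte markers were measured for 7 of 7 genes, all above the 75th percentile on both arrays, and 5 of the 7 differences were above 0. Of all 20777 measured genes 10581 were above 0, and of the 2078 brightest 1543 were. The summed signal of the melanocyte markers, as a multiple of the array's 75th percentile, was 1300 on S180 and 1161 on DMSO. The unscaled sums were 800049 and 868103, on arrays whose 75th percentiles differed by -0.28 (log2, S180 minus DMSO). Scaled sums were 2.52 and 2.75 for striated muscle (6 of 10 markers measured), 0.298 and 0.303 for testis germ cells (7 of 10) and 8.90 and 7.60 for macrophages (6 of 9). They were 2.30 and 3.33 for fibroblasts (5 of 7) and 0.131 and 0.172 for epithelial cells (3 of 7). Of the measured markers, 2 of muscle, 5 of testis, 3 of macrophages, 0 of fibroblasts and 0 of epithelial cells were above 0. In RNA from a whole culture, fewer cells of a type and less RNA per cell cannot be told apart.

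The standard subunits differed little between the arrays. Their median difference was 0.03 with an SD of 0.09, less than the SD of 0.29 of all measured genes. None of the 76 was 1.2-fold apart in either direction, against 27.0% of all measured genes and 11.7% of the genes in the brightest 1 of 10 equal signal classes. That class held 67 of the 76. Within it the median of the subunits was 0.03, and all 2078 genes of the class had a median of 0.08 and an SD of 0.18. There were 48 subunits above the median gene and 28 below it, where 73.1% of the genes of the brightest class were above it, and 50 lay within 0.1 of 0. This split was not stable against the scaling: after quantile normalization it was 25 above and 51 below, after normexp background correction or cyclic loess 34 above and 42 below. With the arrays scaled on 8 spike-in transcripts, the median measured gene was itself at -0.35 and all 76 subunits were below 0, between -0.54 and -0.12. In that setting 54 of them were past 1.2-fold and 0 past 1.5-fold. Without scaling 33 were past 1.2-fold, and with the mean over all probes of a gene 2 were.

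**Figure D1:**
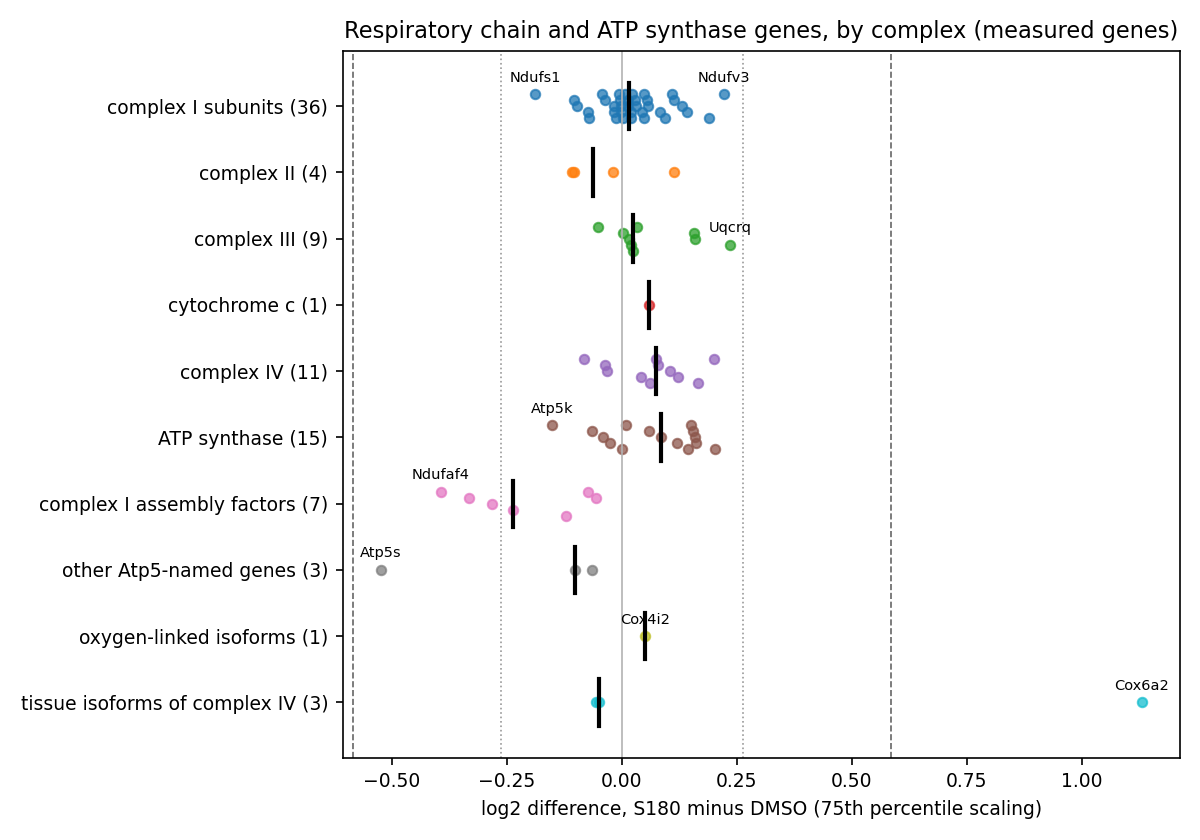
Log2 difference between the S180 and DMSO arrays (x axis) for each measured gene (points), grouped by complex with the number of measured genes in brackets. Black bars are group medians, dotted lines mark 1.2-fold and dashed lines 1.5-fold; all standard subunits lie inside the dotted lines, the assembly factors lie between -0.39 and -0.06, and Cox6a2 stands at 1.13.

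Complex I, which oxidises NADH, had 36 measured subunits with a median difference of 0.02, 21 above and 15 below the median gene. The 7 core subunits, which carry the redox centres or lie beside them, had a median of -0.01, and the 29 accessory subunits a median of 0.02. Ndufv3, an accessory subunit of the NADH-oxidising module, was at 6.39 on S180 and 6.17 on DMSO, a difference of 0.22 and the highest in the complex. Ndufa9, an accessory subunit of the module that passes electrons to ubiquinone, was at 4.691 and 4.501, a difference of 0.19.
At the other end, Ndufs1, the largest core subunit, with iron-sulphur clusters, was at 5.03 on S180 and 5.22 on DMSO, a difference of -0.19. Its other measured probe gave 0.06. Ndufb6, an accessory subunit of the membrane arm, was at 5.10 and 5.20, a difference of -0.11. Subunits of the same module therefore lay on both sides of 0, as Ndufv3 and Ndufs1 show. The Ndufb genes, all of the membrane arm, were split 8 above and 2 below the median gene, and the Ndufs genes 3 above and 5 below.

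Complex II, which is succinate dehydrogenase of the citric acid cycle and has no mitochondrially encoded subunit, had the lowest median of the 5 complexes under this scaling, at -0.06. After quantile normalization it was at -0.08, as was the ATP synthase. Sdhb, the iron-sulphur subunit, was at 6.37 on S180 and 6.25 on DMSO, a difference of 0.11. Sdha, the flavoprotein that binds succinate, was at 4.41 and 4.43, a difference of -0.02, with 4 probes between -0.14 and 0.25.
The membrane anchors Sdhc and Sdhd had the lower values. Sdhc was at 3.40 on S180 and 3.51 on DMSO, a difference of -0.11. Sdhd was at 5.31 and 5.41, a difference of -0.10. With 4 genes the median rests on few values, and their range of 0.11 to -0.11 lay within that of complex I.

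Complex III, the cytochrome bc1 complex, had a median of 0.02 over 9 genes, 7 above and 2 below the median gene. Uqcrq, a small subunit that sits beside cytochrome b, was at 7.39 on S180 and 7.15 on DMSO, a difference of 0.23 that was the highest of the 76 standard subunits under this scaling. Uqcrc1, a core protein, was at 4.91 and 4.75, a difference of 0.16. Its partner core protein Uqcrc2 was at 4.93 and 4.99, a difference of -0.05 and the lowest of the complex.
The catalytic subunits lay between these values. Uqcrfs1, the Rieske iron-sulphur protein, was at 4.82 on both arrays, with a difference of 0.00. Cyc1, cytochrome c1, was at 6.14 and 5.99, a difference of 0.16 by its brightest probe, while its other probe gave -0.13, so that the direction for Cyc1 depends on the probe. Cycs, the soluble carrier cytochrome c that takes electrons from complex III to complex IV, was at 7.02 and 6.96, a difference of 0.06, and its other probe gave -0.05.

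Complex IV, cytochrome c oxidase, had a median of 0.07 over 11 genes, 8 above and 3 below the median gene. Cox8a, a small membrane subunit, was at 6.96 on S180 and 6.75 on DMSO, a difference of 0.20. Cox6c, another small subunit, was at 6.43 and 6.26, a difference of 0.17. The lowest value was that of Cox7c, at 5.34 and 5.42 with a difference of -0.08, and its other probe gave -0.27.
Cox6b1, which faces the intermembrane space, was at 3.19 and 3.22, a difference of -0.04. The median of complex IV was -0.04 after quantile normalization and 0.00 with cyclic loess, so that its sign depends on the scaling. Cox7a2l, which is known to join complexes III and IV in supercomplexes, was at 5.65 and 5.55, a difference of 0.11.

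The ATP synthase had the highest median of the 5 complexes under this scaling, 0.08 over 15 genes, 10 above and 5 below the median gene. After quantile normalization that median was -0.08, and with cyclic loess 0.01. Atp5b and Atp5a1, the beta and alpha subunits of the catalytic F1 head, had the highest values. Atp5b was at 7.44 on S180 and 7.24 on DMSO, a difference of 0.20 by its brightest probe, and the lowest of its 3 probes gave -0.01. Atp5a1 was at 6.87 and 6.71, a difference of 0.16, and its other probe gave -0.05.
By their brightest probes the 5 subunits of the F1 head had a median of 0.15, against 0.05 for the 10 outside it. That order did not hold with the mean over all probes of a gene. Atp5k, the e subunit of the membrane part, was at 5.26 on S180 and 5.41 on DMSO, a difference of -0.15 and the lowest of the enzyme. The 3 genes Atp5g1, Atp5g2 and Atp5g3 encode the same mature protein of the rotating c ring, with other import sequences.
Atp5g1 was at 5.89 and 5.95, a difference of -0.06. Atp5g3 was at 6.95 and 6.80, a difference of 0.14 by its brightest probe and -0.27 by the other. Atp5g2 was printed in replicate on the array: its 10 spots on S180 had a mean of 7.89 (SD 0.039, range 7.82 to 7.93) and its 9 kept spots on DMSO a mean of 7.73 (SD 0.021, range 7.69 to 7.76), a difference of 0.15. Under this scaling the spots of the 2 arrays did not overlap for Atp5g2. The difference of Atp5g2 was -0.08 after quantile normalization and -0.13 without scaling, so its sign depends on the scaling. The replicate spots say nothing of the spread between cultures.

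**Figure D2:**
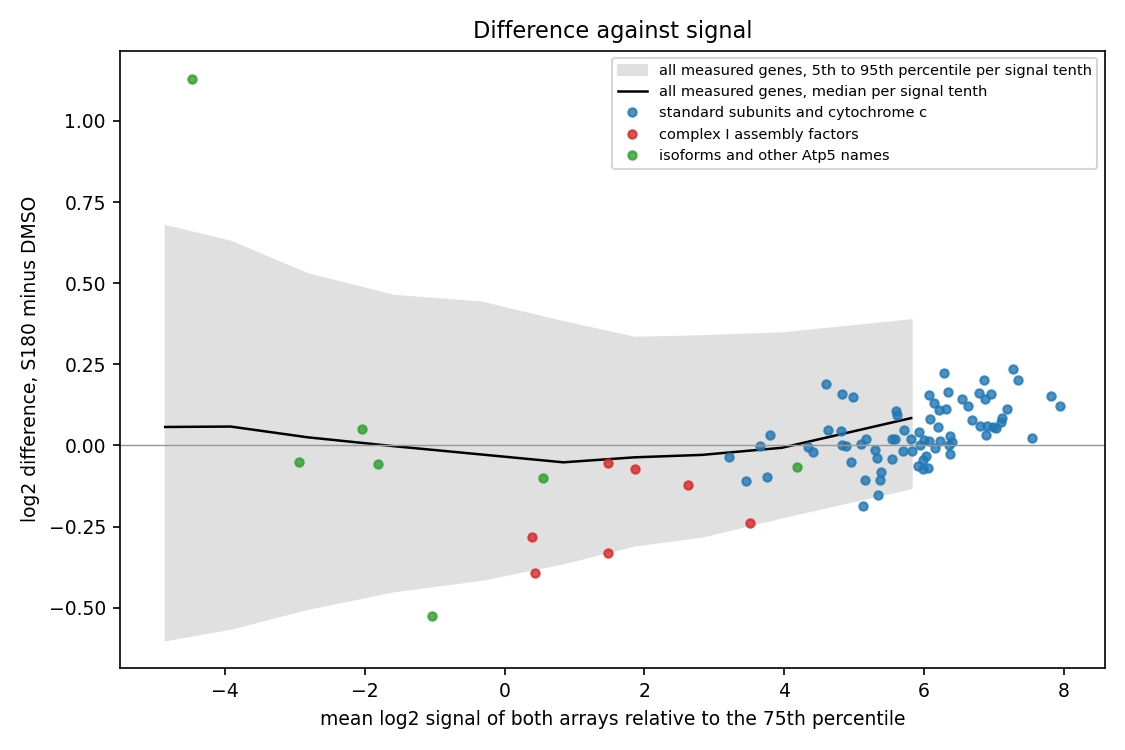
Log2 difference between S180 and DMSO (y axis) against the mean log2 signal of both arrays relative to the 75th percentile (x axis) for each measured gene of the set (points). The line is the median and the band the 5th to 95th percentile of all measured genes in 10 signal classes; the subunits (blue) sit at the bright end, where the line is at 0.08, and the assembly factors (red) sit below the line, which runs between -0.05 and -0.01 there.

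The complex I assembly factors were lower on the S180 array. All 7 were below the median gene, with a median of -0.24 and a range of -0.39 to -0.06, and 3 of the 7 were at least 1.2-fold lower. Of all measured genes 11.8% were at least 1.2-fold lower, and of the 6232 genes in signal classes 6 to 8, where 6 of the 7 lay, 9.15% were at least 1.2-fold lower and 59.4% were below the median gene. None of the 7 was 1.5-fold lower, a fold that 1.71% of all measured genes reached.
Ndufaf4, which acts in the assembly of the matrix arm, was at 0.24 on S180 and 0.63 on DMSO, a difference of -0.39. Ndufaf6, which is needed for an early assembly step, was at 1.32 and 1.65, a difference of -0.33, and its 3 probes gave values between -0.33 and -0.31. Ndufaf3, a partner of Ndufaf4 in the same intermediates, was at 0.26 and 0.54, a difference of -0.28.
These 3 were past 1.2-fold, and the next gene was close to them. Ndufaf2, which joins late in assembly, was at 3.39 and 3.62, a difference of -0.24. Ndufaf7, a methyltransferase of the mitochondrial matrix, was at 2.56 and 2.68, a difference of -0.12. Ndufaf1, part of the intermediate that builds the membrane arm, was at 1.447 and 1.503, a difference of -0.06.
Ndufaf5, which modifies Ndufs7, was at 1.83 and 1.91, a difference of -0.07, while a dimmer probe of the gene gave 0.40. Of the 12 measured probes of the 7 genes, 11 were below 0. All 7 genes stayed below the median gene in every alternative processing except the mean over all probes of a gene, where 6 did.

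Outside the Ndufaf group, 41 of 42 other assembly factors of complexes I to IV and of the ATP synthase were measured. Their median was -0.15, with 9 above and 32 below the median gene. At least 1.2-fold lower were 6 of the 41, near the share of 11.8% of all measured genes, and 1 was at least 1.2-fold higher, where 15.1% of all measured genes were. Lyrm7, a chaperone of the Rieske protein of complex III, was at -3.14 on S180 and -2.50 on DMSO, a difference of -0.64 (1.56-fold lower), at low signal, with 3 probes between -0.64 and -0.25.
Coa4, a complex IV assembly factor, was at 0.27 and 0.66, a difference of -0.39. Sdhaf1, which serves the iron-sulphur subunit of complex II, was at 1.59 and 1.96, a difference of -0.37. The exception past 1.2-fold in the other direction was Timmdc1, a membrane-arm assembly factor of complex I, at 3.54 and 3.13 with a difference of 0.41, but its 3 probes ran from -0.28 to 0.41.
Together with the Ndufaf genes, 48 assembly factors were measured, with a median of -0.15, 9 above and 39 below the median gene. The subunits they assemble had a median of 0.03. The gap was narrower after quantile normalization. There the 41 other factors had a median of -0.14, with 11 above and 30 below the median gene. The 76 subunits then had a median of -0.07, with 25 above and 51 below it. Signal moved with this gap: 5 of the 7 Ndufaf genes lay in signal classes 6 and 7, where the medians of all genes were -0.05 and -0.04, and 67 of the 76 subunits in class 10, the brightest, where it was 0.08. The part of signal in the gap was not tested.

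Of the 11 isoforms and other Atp5 names outside the standard set and the Ndufaf group, 7 were measured. Of the 2 isoforms linked to oxygen, 1 was measured. Cox4i2, the form of subunit 4 that replaces Cox4i1 in lung and at low oxygen, was at -2.01 on S180 and -2.06 on DMSO, a difference of 0.05. Cox4i1 was at 7.13 and 7.06, a difference of 0.07, so that the difference of Cox4i2 minus that of Cox4i1 was -0.02. These small values changed sign with the scaling. After quantile normalization Cox4i2 was at 0.02 and Cox4i1 at -0.09, so that their order was reversed. Without scaling Cox4i2 was at -0.23 and Cox4i1 at -0.21.
Ndufa4l2, an Ndufa4 relative known to be induced by HIF-1, was not well above background on either array by either of its 2 probes, and its signals were 10.9 on S180 and 10.6 on DMSO. The lowest signal well above background was 13.1 on S180 and 16.5 on DMSO. No fold is given for it. Ndufa4, first taken for a complex I subunit and now placed in complex IV, was at 6.02 and 6.05, a difference of -0.03.

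Cox6a2, the heart and skeletal muscle form of subunit 6a, was the single gene of the set past 1.5-fold. That is 1 of 90 higher on S180 and 0 lower, where 3.08% of all measured genes were at least 1.5-fold higher and 4.79% were past that fold in either direction. It was also the single one past 2-fold, where 0.582% of all measured genes were that much higher and 0.751% were past it in either direction. It was read at chr7:135349160-135349219 (mm9), at -3.90 on S180 and -5.03 on DMSO, a difference of 1.13 (2.19-fold). Its signals were 41.2 and 22.9, close to the lowest signals well above background. The SD of a difference between single spots was 0.266 among 11 dim probes. In the dimmest of the 10 signal classes, where Cox6a2 lay, the differences of all genes had an SD of 0.39 and a 95th percentile of 0.68. With normexp background correction the difference was 0.51 and fell short of 1.5-fold, and with spike-in scaling it was 0.77.
The liver-type partner Cox6a1, the common form, was at 8.00 and 7.88, a difference of 0.12. The striated muscle markers Ckm, Mb, Myh6 and Myl2 did not count as measured. Of the 6 muscle markers that did, 2 were above 0 (Tnnt3 at 0.47 and Myh7 at 0.38) and 4 below, and the scaled sum of all 10 was 2.52 on S180 and 2.75 on DMSO, most of it from Actn2 (-0.16). Their part in the value of Cox6a2 was not tested.
Cox7a1, the other muscle form, was at -1.84 and -1.78, a difference of -0.06. Cox6b2, the testis form of subunit 6b, was at -2.97 and -2.92, a difference of -0.05. Cox7b2, Cox8b and Cox8c were not well above background on either array.

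**Figure D3:**
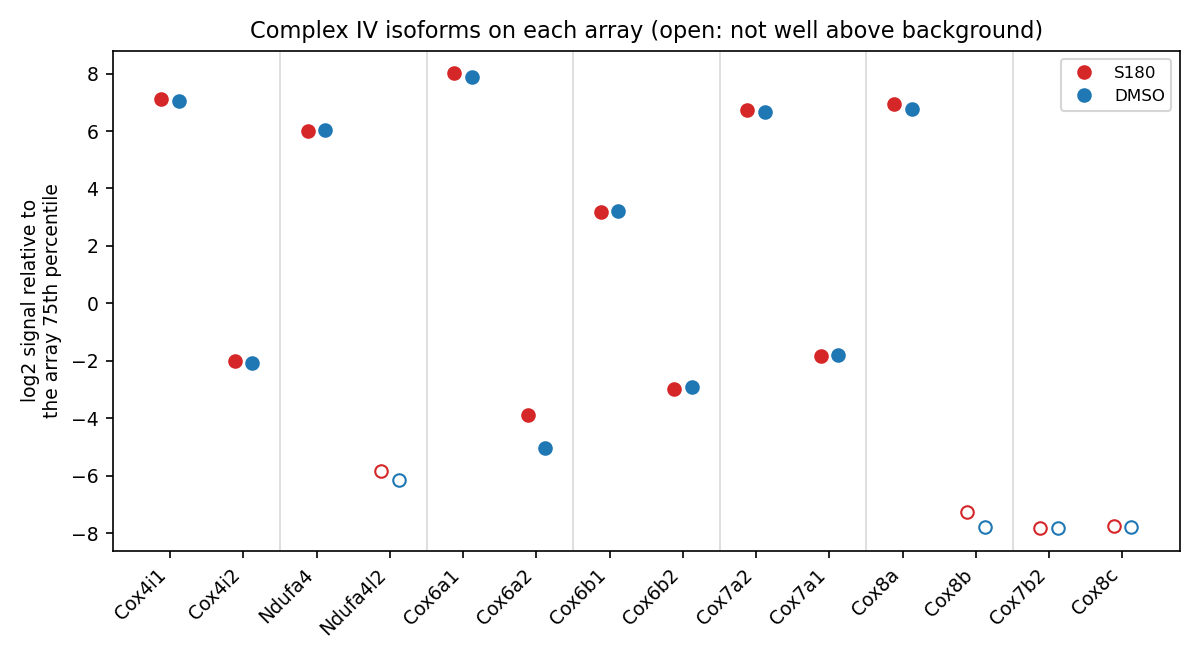
Log2 signal relative to the array's 75th percentile (y axis) on the S180 array (red) and the DMSO array (blue) for common and alternative forms of complex IV subunits (x axis), with open circles where the probe was not well above background. Among the forms well above background the paired points lie at most 0.201 apart except for Cox6a2, at -3.90 and -5.03; heights of different genes are read by different probes and are not to be compared.

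Of the other Atp5-named genes, Atp5s (Dmac2l in RefSeq), which is no subunit of the enzyme, was the lowest of all 90 measured genes. It was read at chr12:70842700-70842759 (mm9), at -1.30 on S180 and -0.77 on DMSO, a difference of -0.52 (1.44-fold lower). With Ndufaf4, Ndufaf6 and Ndufaf3 it made up the 4 of 90 genes of the set that were at least 1.2-fold lower, a smaller share than the 11.8% of all measured genes.
Atp5sl (Dmac2 in RefSeq), known as an assembly factor of the complex I membrane arm, was at 0.50 and 0.60, a difference of -0.10. Atp5c1-ps, a pseudogene of the gamma subunit, was at 4.15 and 4.21, a difference of -0.07, and its probe may share signal with Atp5c1, at 6.82 and 6.76 with a difference of 0.06.

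The agreement between probes of a gene depended on their signal. The 94 genes had 147 probes, of which 139 were measured, and 37 genes had 2 or more. The gap between the 2 brightest probes of a gene had a median of 0.11 and reached 0.50, and 8 genes had probes that spanned more than 0.3. Among probes of standard subunits that were above the 75th percentile on both arrays, 104 in number, differences ran from -0.27 to 0.23 and 2 were past 1.2-fold.
The other 15 probes of subunits ran from -0.44 to 0.65 and 5 were past 1.2-fold. They belonged to Ndufv3 (0.65), Ndufs3 (0.52), Atp5j (0.46), Ndufa3 (-0.44) and Ndufb2 (-0.41), whose brightest probes gave 0.22, 0.02, -0.04, 0.00 and 0.09. The median gap of 0.11 rests on the 37 genes with 2 or more measured probes, some with a far dimmer second probe. For scale, the differences of the 76 standard subunits had an SD of 0.09.

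**Figure D4:**
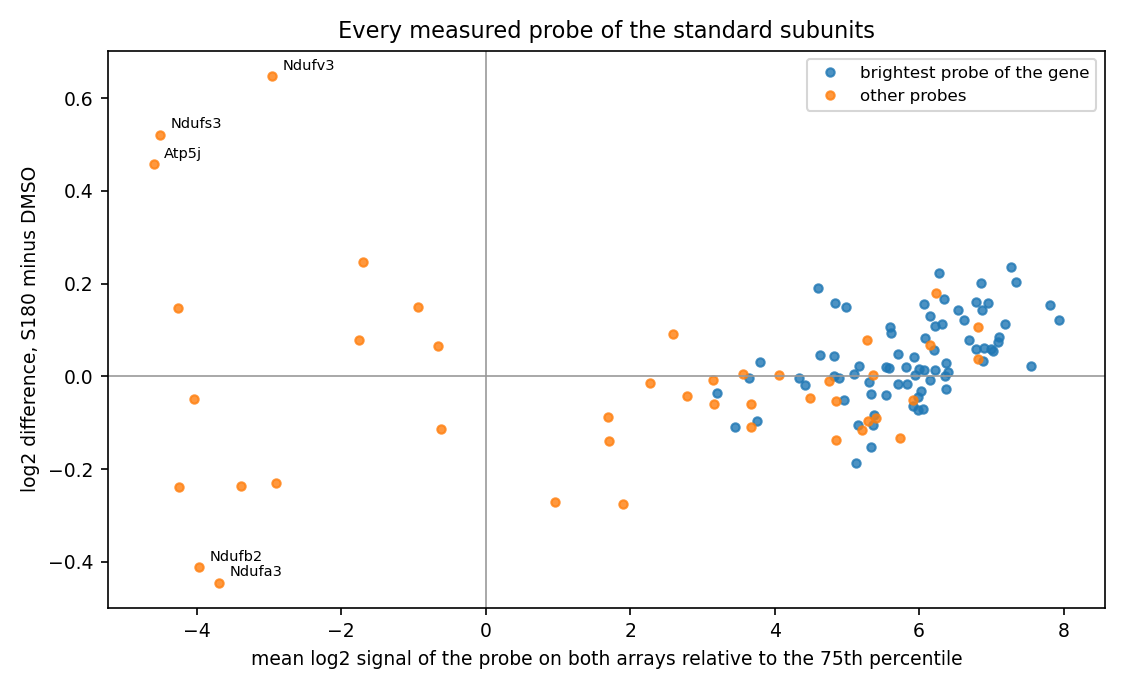
Log2 difference between S180 and DMSO (y axis) for every measured probe of the standard subunits against its mean log2 signal on both arrays relative to the 75th percentile (x axis), with the brightest probe of each gene in blue and other probes in orange. Probes right of 0 lie between -0.27 and 0.23, while the dim probes left of 0 spread from -0.44 to 0.65.

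The subunits encoded in mitochondrial DNA, which are transcribed apart from the nuclear genes, were measured for 11 of 13 genes, and the other 2 were not found by name among the probes used here. Their median was 0.15, with 10 above and 1 below the median gene. Past 1.2-fold were 0 of the 11, against 27.0% of all measured genes and 11.7% of those in the brightest signal class. Of all genes of the brightest signal class, 73.1% were above the median gene. COX2, a catalytic-core subunit of complex IV, was at 7.41 on S180 and 7.16 on DMSO, a difference of 0.25. COX1, which carries the site of oxygen reduction, was at 7.83 and 7.61, a difference of 0.22. CYTB, cytochrome b of complex III, was at 7.73 and 7.52, a difference of 0.22.
ND6, a complex I subunit encoded on the other DNA strand, was at 1.66 and 1.45, a difference of 0.21, and ND5 had the single value below 0, at -0.18. The nuclear subunits of complex IV and of the ATP synthase, with medians of 0.07 and 0.08, and the mitochondrial ones lay on the same side of 0 under this scaling. After quantile normalization they lay on opposite sides, at -0.04 for complex IV, -0.08 for the ATP synthase and 0.06 for the mitochondrial genes. COX1 was then at 0.00 and CYTB at -0.01. Of the 11 mitochondrial genes, 10 were above the median gene in every alternative run, while with spike-in scaling their median was -0.21 and all 11 were below 0.

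Among 20 measured regulators of mitochondrial biogenesis and of mitochondrial DNA, the median was -0.12, with 4 above and 16 below the median gene. At least 1.2-fold lower were 7 of the 20, where 11.8% of all measured genes and 9.15% of those in signal classes 6 to 8 were. Pprc1, a coactivator of the PGC-1 family, was at 2.57 on S180 and 2.95 on DMSO, a difference of -0.38. Ppargc1b, another coactivator of that family, was at 1.29 and 1.64, a difference of -0.35. Polg2, the accessory subunit of the mitochondrial DNA polymerase, was at 0.57 and 0.91, a difference of -0.34.
Tfb1m, which methylates mitochondrial ribosomal RNA, was at 0.96 and 1.28, a difference of -0.32.

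Regulators that link the chain to oxygen included 3 genes at least 1.2-fold higher on S180, a fold that 15.1% of all measured genes reached. Of 10 such genes 9 were measured, with a median of 0.18, 8 above and 1 below the median gene. Like the other lists, this list was chosen with earlier results of these data known, so these counts only describe it. Mxi1, a MAX-binding repressor that opposes MYC, was at 3.30 on S180 and 2.19 on DMSO, a difference of 1.12 (2.17-fold), and its 2 probes gave 1.12 and 1.24. Higd1a, which binds complex IV, was at 7.26 and 6.40, a difference of 0.86 (1.82-fold).
Lonp1, the matrix protease known to degrade Cox4i1, was at 5.36 and 4.88, a difference of 0.48 (1.39-fold). Rbpj, the DNA-binding factor of Notch signalling and a partner in Cox4i2 transcription, was at 2.13 and 1.93, a difference of 0.21. With spike-in scaling these differences were 0.76 for Mxi1, 0.51 for Higd1a, 0.12 for Lonp1 and -0.15 for Rbpj, and the median of the list was -0.18 with 6 of 9 genes below 0. With normexp the split around the median gene was 6 above and 3 below. Beside them, Cox4i2 was at 0.05 and Ndufa4l2 was not well above background.

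**Figure D5:**
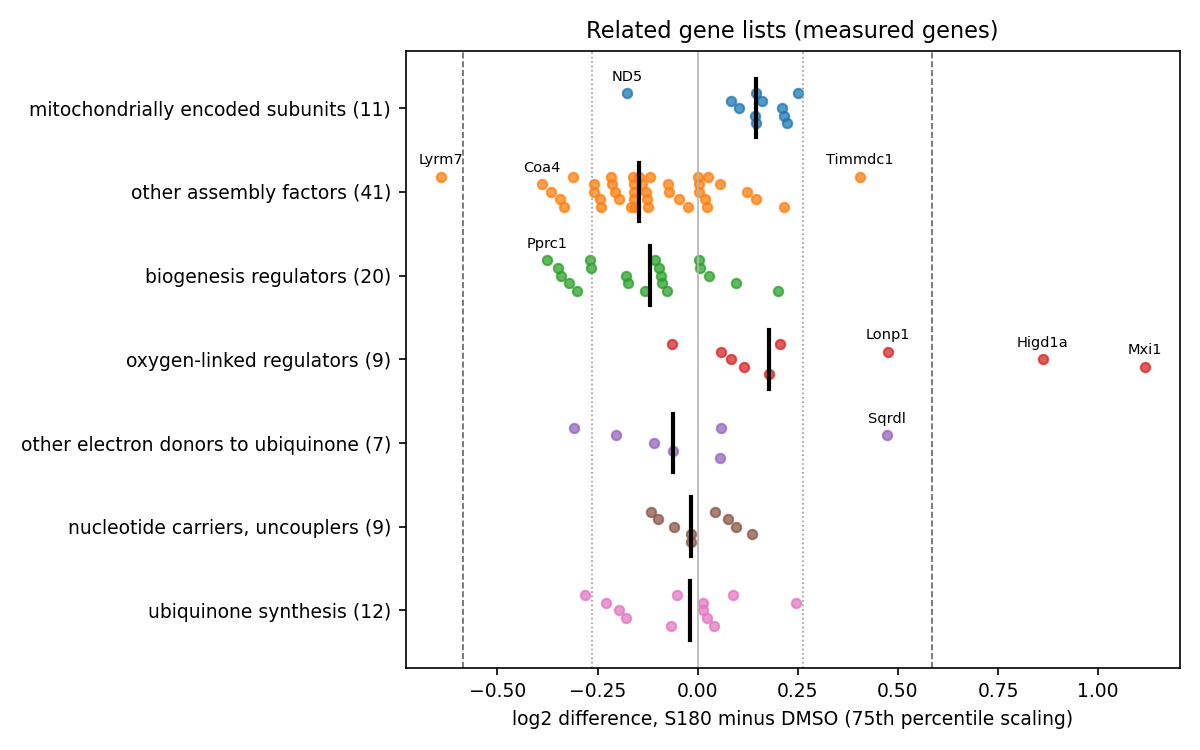
Log2 difference between S180 and DMSO (x axis) for each measured gene (points) of lists related to the respiratory chain, with the number of measured genes in brackets, medians as black bars, 1.2-fold as dotted lines and 1.5-fold as dashed lines. The mitochondrially encoded subunits and the oxygen-linked regulators have medians of 0.15 and 0.18, and the other assembly factors and the biogenesis regulators medians of -0.15 and -0.12.

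The remaining genes that feed or use the chain gave medians near 0. Other enzymes that pass electrons to ubiquinone, 7 of 8 measured, had a median of -0.06. Among them Dhodh, of pyrimidine synthesis, was at 0.45 on S180 and 0.76 on DMSO, a difference of -0.31, and Sqrdl, which oxidises sulphide, was at -3.62 and -4.09, a difference of 0.47 at low signal. The carriers of adenine nucleotides and phosphate and the uncouplers, 9 of 11 measured, had a median of -0.02. By their brightest probes all 9 were within 1.2-fold, while 27.0% of all measured genes were past it. The 4 measured probes of the carrier Slc25a25 ran from -0.02 to 0.83. The 12 genes of ubiquinone synthesis also had a median of -0.02, with Pdss2, which makes the side chain of ubiquinone, the lowest at -0.28 and Coq10b, a ubiquinone-binding protein, the highest at 0.24.
Cyct, the testis form of cytochrome c, was at -5.08 and -4.57, a difference of -0.50 at signals of 18.2 and 31.4, near the lowest well above background. With normexp background correction the difference of Cyct was 0.01. Hccs, which attaches haem to cytochrome c, had a difference of 0.13.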

How the data were processed

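Total RNA of 2 samples, 1 per group, was labelled with Cy3 and hybridised to 1-colour Agilent arrays, per the labels' protocols. Samples were grouped by the agent that the labels name. The deposited scanner tables give the intensity of each spot, from Agilent Feature Extraction 10.7.1.1 per the submitters' processing notes. Background was subtracted, trends across the array were removed and dim spots carried surrogate values, with no scaling between arrays, per the file headers. A deposited series table gives log2 values, and how they were made is not stated in the labels or headers. Each column correlated with its own array at 0.9999 or more, both medians were 5.27, and its scale and direction were thereby settled. Its differences were nearly those found after quantile normalization, with medians of -0.0666 and -0.0656 for the standard subunits.

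Control spots and outlier-flagged spots (120 on S180, 195 on DMSO) were left out and spots of a probe were averaged, giving 56602 probes. The log2 processed intensity minus the array's 75th percentile was used, with the brightest probe for each gene. No test was possible with 1 array per group, and 1.5-fold was the threshold for counts. Gene names are those of the files. Accessions matched 89 of the 94 genes to a RefSeq table of GRCm38.p6, with 3 changed symbols. The members and lists were chosen with earlier results of these data known.

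Named with values were the 2 highest and 2 lowest genes of each complex, genes past 1.5-fold, isoforms, up to 4 genes of each related list with the largest differences, and any other gene of the set where its values bear on these. ND5, Hccs, Slc25a25 and the muscle markers named lie outside that rule and were chosen after their values were seen. Alternatives were other scalings (quantile normalization, median, none, spike-in), normexp in limma 3.58.1 under R 4.3.3 (offset 50), the values of the deposited series table, the mean over probes of a gene, stricter and no filters on low signal and other fold thresholds; cyclic loess was chosen after seeing the data. The calculation was tested on simulated data. The number of arrays limits the precision.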

Additional observations from a re-analysis of the deposited data

How the results depend on the processing

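The small median differences of the subunits changed sign with the scaling and give no direction. After quantile normalization the medians were -0.0656 for the standard subunits, -0.0595 for complex I, -0.0629 for complex III, -0.0411 for complex IV and -0.081 for the ATP synthase, and in the deposited table they were -0.0666, -0.0605, -0.0629, -0.0411 and -0.0826. Since its values nearly equal those after quantile normalization, the deposited table is no separate check. Cyclic loess, chosen after seeing the data, gave 0.0022 for complex IV and 0.0132 for the ATP synthase. Without scaling the medians were -0.26 (standard subunits), -0.27 (complex I), -0.34 (complex II), -0.26 (complex III), -0.21 (complex IV), -0.20 (ATP synthase) and -0.52 (complex I assembly factors), where the median gene was at -0.28. With spike-in scaling they were -0.33, -0.34, -0.42, -0.33, -0.28, -0.27 and -0.59 in the same order, where the median gene was at -0.35. In the other alternatives the median of the assembly factors stayed between -0.24 and -0.22. The number of genes of the set at least 1.5-fold higher was 0 with normexp and 0 among the brightest 50% of genes. The number at least 1.5-fold lower was 3 without scaling, 5 with spike-in scaling and 4 at a 1.2-fold threshold. Over all measured genes, the count at least 1.5-fold higher (640) was 201 without scaling, 146 with spike-in scaling, 259 with normexp, 176 among the brightest 50% and 3959 with no filter, and the count lower (356) was 1873, 2978, 59, 31 and 2064. At 1.2-fold these counts were 3146 and 2460, at 2-fold 121 and 35. Apart from the shifts of scale, the cause of these changes was not tested. No paired analysis was possible because each group has 1 sample. Signal close to background limits what the Cox6a2 probe can show.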
